A study of Mus musculus with 20 samples.

Results

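Iron travels in plasma bound to transferrin, and hemoglobin and heme set free from red cells are bound there by haptoglobin and hemopexin. The liver makes these proteins, stores iron in ferritin, and secretes hepcidin, the hormone that binds the iron exporter ferroportin and causes its degradation. Iron regulatory proteins adjust the same system after transcription, because they bind hairpins in the mRNAs of ferritin, ferroportin and the transferrin receptor. The 10 genes described here are Hp, Hpx, Cp, Hamp, Hamp2, Lcn2, Trf, Tfrc, Slc40a1 and Fth1. They were chosen by symbol from the liver RNA-seq tables of both sexes and joined by Ensembl identifier. All 10 were listed in both tables, among 56884 genes in the male table and 18149 in the female table, and all 18149 female entries were also in the male table.

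The series holds 12 RNA-seq libraries from mouse liver, 3 WT and 3 Midn-T in each sex, and 8 ATAC-seq libraries that were not used here. The mice carried a conditional gene-trap allele of Midn made in C57BL/6J embryos, in which a cassette inside an intron leaves Midn expressed in its first orientation (genotype Midn XTR, labelled WT) and, once inverted by Cre, ends the transcript early and reports by GFP (genotype Midn TR, labelled Midn-T). Cre was driven by the Albumin promoter and so is aimed at hepatocytes, one of several cell types in bulk liver RNA. The labels do not say whether the WT mice carried Cre. Livers were taken at 11 to 14 weeks of age with no further treatment.

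The values described are the authors' mean normalized counts, 1 per gene and table, each the mean over the 6 libraries of a sex with WT and Midn-T pooled. No value of a single library was used here, so no value below has an SD or a test, library depth is not known, and nothing below compares WT with Midn-T. For the same reason the trapped gene, Midn, was not checked against the genotype labels. The means summed to 3.03e+07 in males and 3.08e+07 in females. To compare genes with each other, each mean was divided by the gene's annotated exonic length and scaled so that all genes of a table sum to 1000000, which gives the length-scaled level in parts per 1000000 (ppm). Xist, the RNA that coats the inactive X, had a mean of 14.0 in the male table and 72478 in the female table, and the Y-linked genes Ddx3y, Eif2s3y, Kdm5d and Uty had means from 964 to 3147 in males and were not listed in females. In bulk liver, fewer cells of a type and less RNA per cell cannot be told apart.

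The genes of the plasma proteins transferrin, hemopexin and haptoglobin stood at the top of the group in both sexes. The 10 genes made up 2.23% of the summed means in males and 2.02% in females. Trf, Hpx and Hp held the 3 highest places by length-scaled level in each table, and Tfrc and Lcn2 the 2 lowest. Between these ends the order was Hamp, Fth1, Cp, Hamp2 and Slc40a1 in males, and Hamp2, Fth1, Hamp, Cp and Slc40a1 in females. With the canonical transcript as the length, Fth1 (1731 ppm) and Cp (691) came before Hamp (644) in males. Slc40a1 (143.5) also came before Hamp2 (90.4) in males, and Cp (705.5) came before Hamp (434) in females. With the longest transcript, Fth1 (971) came before Hamp (797) and Slc40a1 (157) before Hamp2 (111) in males. In females Cp (655) came before Hamp (539) with that length. From the lowest to the highest gene the length-scaled level spanned 17.3 to 9614 ppm in males and 9.21 to 9809 ppm in females.

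**Figure D1:**
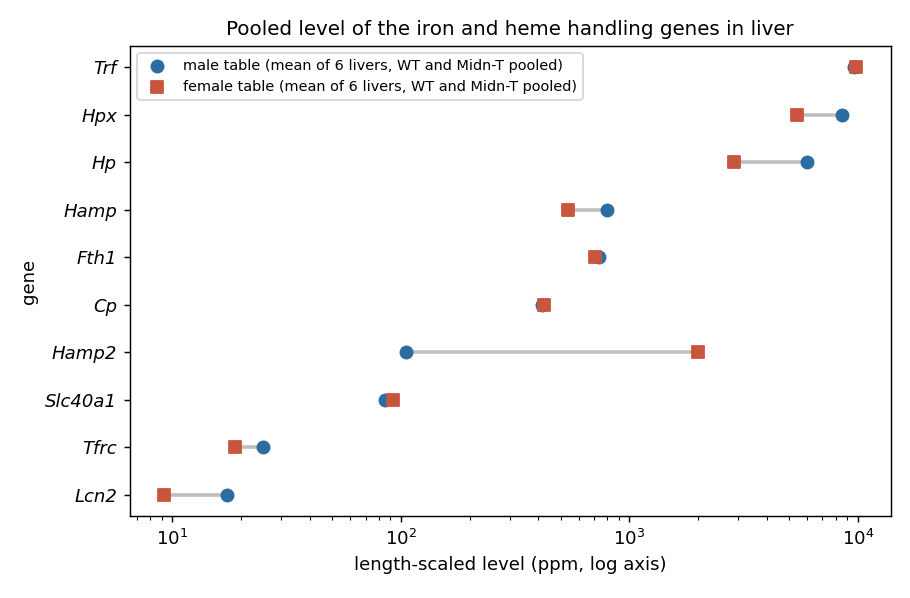
Length-scaled level (ppm, log axis) of each of the 10 genes in the male table (circles) and the female table (squares), each point the authors' mean over 6 livers with WT and Midn-T pooled, so that no error bar can be drawn. The circle and square of Trf, Cp, Fth1 and Slc40a1 nearly coincide, while those of Hamp2 lie far apart, at 105 and 1991 ppm.

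Trf encodes transferrin, the plasma carrier that delivers iron to cells. The gene (ENSMUSG00000032554) lies at chr9:103081200-103107814 on the minus strand of GRCm39. Its mean normalized count was 424764 in males and 440367 in females, which was the fourth highest of all genes in the male table and the fifth highest in the female table. Trf alone made up 1.40% of the summed means in males and 1.43% in females. On the length-scaled level it stood at 9614 ppm in males and 9809 ppm in females, at rank 13 and rank 9. No other of the 10 genes came closer to the top of either table.

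Cp encodes ceruloplasmin, the copper oxidase of plasma that oxidizes iron so that transferrin can bind it. The gene (ENSMUSG00000003617) lies at chr3:20011090-20063930 on the plus strand of GRCm39. Its mean normalized count was 36079 in males and 37326 in females, a length-scaled level of 415 and 422 ppm. The level of Trf was 23.2 times that of Cp in each sex. Cp shares 108 exonic bases with Hps3 on the opposite strand, which had a mean normalized count of 466 in males and 451 in females and is named here because of that overlap. Reads were assigned to genes by strand.

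The heme and hemoglobin scavengers differed in level between the 2 tables more than the carriers did. Hp encodes haptoglobin, which binds free hemoglobin, and Hpx encodes hemopexin, which binds free heme. Hp (ENSMUSG00000031722, chr8:110301759-110305804, minus strand) had a mean normalized count of 79226 in males and 38367 in females. Hpx (ENSMUSG00000030895, chr7:105240817-105249344, minus strand) had 99672 in males and 64367 in females. The 2 genes together reached a length-scaled level of 14537 ppm in males and 8285 ppm in females. Hpx was the higher of the pair in each table, by 1.42 times in males and 1.90 times in females.

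The 2 hepcidin genes changed places between the sexes. Hamp encodes hepcidin, the hormone that lowers iron export into plasma, and Hamp2 is its mouse paralog. Hamp (ENSMUSG00000050440, chr7:30641766-30643990, minus strand) had a mean normalized count of 5527 in males and 3781 in females. Hamp2 (ENSMUSG00000056978, chr7:30621797-30624106, minus strand) had 496 in males and 9577 in females. On the length-scaled level Hamp stood at 800.2 ppm in males and 539 in females, and Hamp2 at 105 and 1991. The level of Hamp was thus 7.64 times that of Hamp2 in males, and the level of Hamp2 was 3.70 times that of Hamp in females. Hamp2 held 11.6% of the summed level of the 2 genes, 905 ppm, in males and 78.7% of 2529 ppm in females. Whether the 2 peptides act alike was not tested, so the sum is not a measure of the hormone. The genes lie 17659 bases apart on the same strand, with 1 annotated gene between them, the pseudogene Usf2-ps1.

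Because Hamp and Hamp2 are near copies, their sequences are shown over the part of the last exon that encodes the mature peptide, the 25 codons before the stop, read from GRCm39 with the bases that differ in capitals. Hamp covers chr7:30641905-30641979 and Hamp2 covers chr7:30621936-30622010, both on the minus strand in exon 3.
Hamp: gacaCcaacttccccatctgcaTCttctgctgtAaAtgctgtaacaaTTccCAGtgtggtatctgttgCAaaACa
Hamp2: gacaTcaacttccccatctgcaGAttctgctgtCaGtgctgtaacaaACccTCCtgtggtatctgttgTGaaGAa
The 75 bases differ at 14 positions, which fall in 9 of the 25 codons, and the longest run they share is 17 bases. Each keeps 8 cysteine codons, the residues that form the disulfide bridges of hepcidin. Over the whole coding sequence 236 of 252 bases were identical, or 93.7%. The differences are therefore more frequent in the printed stretch than in the rest of the coding sequence.

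Near copies matter for these values because only uniquely mapped reads were counted. Every stretch of 75 bases in the canonical transcript of each member was looked up in the whole genome. In Hamp 13 of 610 such words, 2.13%, had an exact copy outside the gene, and in Hamp2 13 of 363, 3.58%. Those copies lay within the other hepcidin gene. With words of 150 bases, the length of 1 read, the share was 0 for all 10 genes. The words came from spliced transcripts and were looked up in unspliced genome sequence. A word across an exon junction could therefore not match a paralog that has introns. The shares of Hamp and Hamp2, with 3 exons each, may thus be too low, and their spliced transcripts were not compared word by word. Fth1 had 33 of 855 words of 75 bases elsewhere, 3.86%, at the processed pseudogene Fth1-ps on the X chromosome, which is named because of the match and had a mean normalized count of 6.87 in males and 8.19 in females. The remaining 7 genes shared no word of 75 bases.

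**Figure D2:**
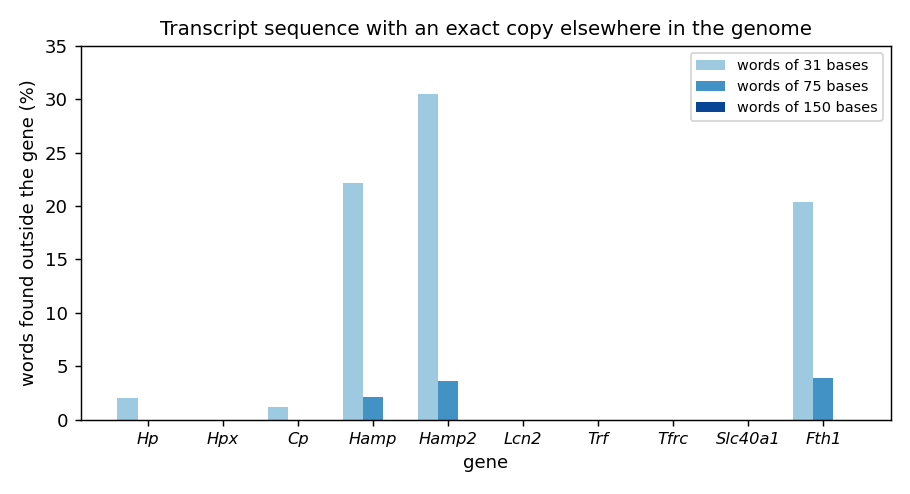
Percent of all words of 31, 75 or 150 bases in the canonical transcript of each gene that have an exact copy elsewhere in the mouse genome, with bars starting at 0. Hamp, Hamp2 and Fth1 share 22.2%, 30.5% and 20.4% of their words of 31 bases, Hp and Cp share 1.98% and 1.19%, and no gene shares a word of 150 bases. A word across an exon junction could not match a paralog that has introns.

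The antisense strand of the hepcidin locus was also read. Gm44662, an annotated lncRNA named here after its values were seen, overlaps 389 exonic bases of Hamp2 and 95 of Hamp on the opposite strand. Its mean normalized count was 4.40 in males and 95.3 in females, 21.6 times higher in the female table before any centring. Those means were 0.888% and 0.995% of the mean of Hamp2 in the same table, and 0.0797% and 2.52% of the mean of Hamp. Whether Gm44662 counts are reads of its own or sense reads of Hamp2 assigned to the wrong strand was not tested. The other overlaps were on the opposite strand as well. Gm36913, which overlaps Fth1, had a mean of 0.866 in males and was not listed in females. Gm69171, which overlaps Trf, and Gm69542, which overlaps Slc40a1, were listed in neither table. The male table also lists genes with a mean of 0, so Gm69171 and Gm69542 had no value there rather than a mean of 0.

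Of the genes of cellular iron traffic, Fth1 encodes the ferritin heavy chain, which stores iron inside the cell, and stood above Slc40a1 and Tfrc in both tables. The gene (ENSMUSG00000024661, chr19:9957911-9962462, plus strand) had a mean normalized count of 20186 in males and 19720 in females, a length-scaled level of 739 and 710.4 ppm. Slc40a1 encodes ferroportin, the exporter on which hepcidin acts. Slc40a1 (ENSMUSG00000025993, chr1:45947211-45965683, minus strand) had a mean normalized count of 6237 in males and 6835 in females, a length-scaled level of 85.3 and 92.0 ppm. Tfrc encodes transferrin receptor 1, which takes up iron-loaded transferrin. Tfrc (ENSMUSG00000022797, chr16:32427556-32451612, plus strand) had 1359 in males and 1046 in females, a level of 24.8 and 18.8 ppm.

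The carrier Trf far exceeded the receptor Tfrc, which is not the only iron importer: Slc39a14, described below, had 112 ppm in each sex. The level of Trf was 388 times that of Tfrc in males and 523 times in females. The exporter Slc40a1 stood 3.44 times above Tfrc in males and 4.90 times in females, and the store Fth1 stood 29.8 and 37.9 times above Tfrc. These ratios depend on the gene length used: with the canonical transcript Trf over Tfrc was 595 in males and 802 in females, Slc40a1 over Tfrc 6.49 and 9.24, and Fth1 over Tfrc 78.3 and 99.4, so the direction held and the size did not. Lcn2 encodes lipocalin 2, which binds bacterial siderophores, the iron carriers of microbes. Lcn2 (ENSMUSG00000026822, chr2:32274645-32278264, minus strand) had the lowest mean of the 10, with a mean normalized count of 352 in males and 190.5 in females and a level of 17.3 and 9.21 ppm. In males Tfrc took the lowest level instead with the canonical transcript (22.1 against 30.7 ppm for Lcn2) and with the longest (24.1 against 25.4).

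The 3 genes of cellular iron traffic share a sequence that was not found in the others. A search of canonical transcripts for the iron-responsive element, written as a bulged C, a stem of 5 paired positions and the loop CAGTGN, found 6 stem-loops of 17 bases among the 10 genes, all in Tfrc, Slc40a1 and Fth1. They are printed below in the sense of the mRNA from GRCm39, with the loop in capitals.
Tfrc 1: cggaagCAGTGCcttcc
Tfrc 2: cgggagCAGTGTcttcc
Tfrc 3: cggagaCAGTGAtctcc
Tfrc 4: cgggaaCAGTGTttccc
Slc40a1: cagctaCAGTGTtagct
Fth1: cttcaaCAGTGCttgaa
The 4 elements of Tfrc lie in the 3′ UTR within exon 19, at chr16:32450043-32450059, chr16:32450422-32450438, chr16:32450487-32450503 and chr16:32450534-32450550. Those of Slc40a1 (chr1:45964631-45964647, minus strand) and Fth1 (chr19:9960102-9960118, plus strand) lie in the 5′ UTR within exon 1. As background, an iron regulatory protein on a 5′ element blocks translation, and on the 3′ elements of Tfrc it protects the mRNA from decay.

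The motif was rare among transcripts. Of 21770 coding transcripts 289, or 1.33%, had a match anywhere, 24 (0.110%) had one in the 5′ UTR and 125 (0.574%) had one in the 3′ UTR. Tfrc was the only transcript with 4 or more. In the list of other iron genes introduced below, Ftl1 (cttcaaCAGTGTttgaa) and Alas2 (cgtcctCAGTGCagggc) had 1 match each, both in the 5′ UTR. Ftl1 and Fth1 encode the 2 chains of ferritin. Trf, Hp, Hpx, Cp, Lcn2, Hamp and Hamp2 had no match. The search covered this form in canonical transcripts only, so a gene without a match may still carry an element of another form.

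**Figure D3:**
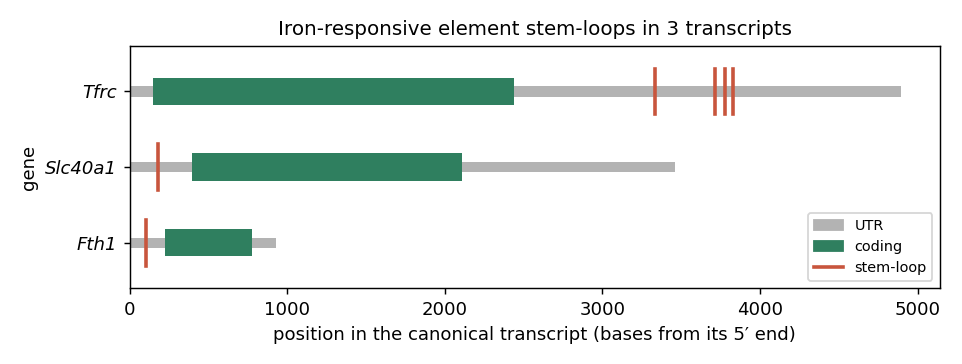
Position (bases from the 5′ end) of the 6 iron-responsive element stem-loops, drawn as vertical lines, in the canonical transcripts of Fth1, Slc40a1 and Tfrc, with UTRs as thin bars and coding sequence as thick bars, to scale. The 4 lines of Tfrc fall in its 3′ UTR of 2458 bases, and the single lines of Slc40a1 and Fth1 fall in 5′ UTRs of 395 and 224 bases.

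The means of the 2 sexes were then set against each other. The authors scaled each table on its own, so the ratio was centred on the median of the 16283 genes with a mean of at least 10 in both tables, a shift of 0.05 on the log2 scale. With 1 pooled value per sex the ratio is a description with no test, and WT and Midn-T are averaged in it. Among all 16283 genes, 324 (1.99%) were over 2 times higher in the female table and 245 (1.5%) over 2 times higher in the male table. Of the 10 genes, 1 was past 2-fold in the female direction (Hamp2), 1 in the male direction (Hp) and 8 were within 2-fold. The median absolute log2 ratio was 0.51 over the 10 genes and 0.20 over all genes.

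Hamp2 was 18.6 times higher in the female table, a centred log2 ratio of 4.22, and 9 of the 16283 genes had a higher ratio. Hamp lay on the other side and was 1.51 times higher in males, a log2 ratio of -0.60. The middle of all genes was narrow by comparison, with the 5th and 95th percentiles of the log2 ratio at -0.54 and 0.70. Hp was 2.14 times higher in males, a log2 ratio of -1.10, and 1.25% of genes had a lower ratio. Lcn2 was 1.91 times higher in males and Hpx 1.60 times, with 1.71% and 3.17% of genes lower. These 4 genes, Hp, Lcn2, Hpx and Hamp, were all below the 5th percentile of the ratio.

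The other 5 genes lay nearer the median gene. Tfrc was 1.35 times higher in males, a log2 ratio of -0.43. Fth1 was 1.06 times higher in males and Slc40a1 1.06 times higher in females. Trf and Cp had log2 ratios that rounded to 0.00, and the sign for Cp changed without the centring, to 0.05. The carriers, the store and the exporter thus lay between the 25th and 75th percentiles, -0.18 and 0.23, while both scavengers and both hepcidins lay outside the 5th to 95th.

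**Figure D4:**
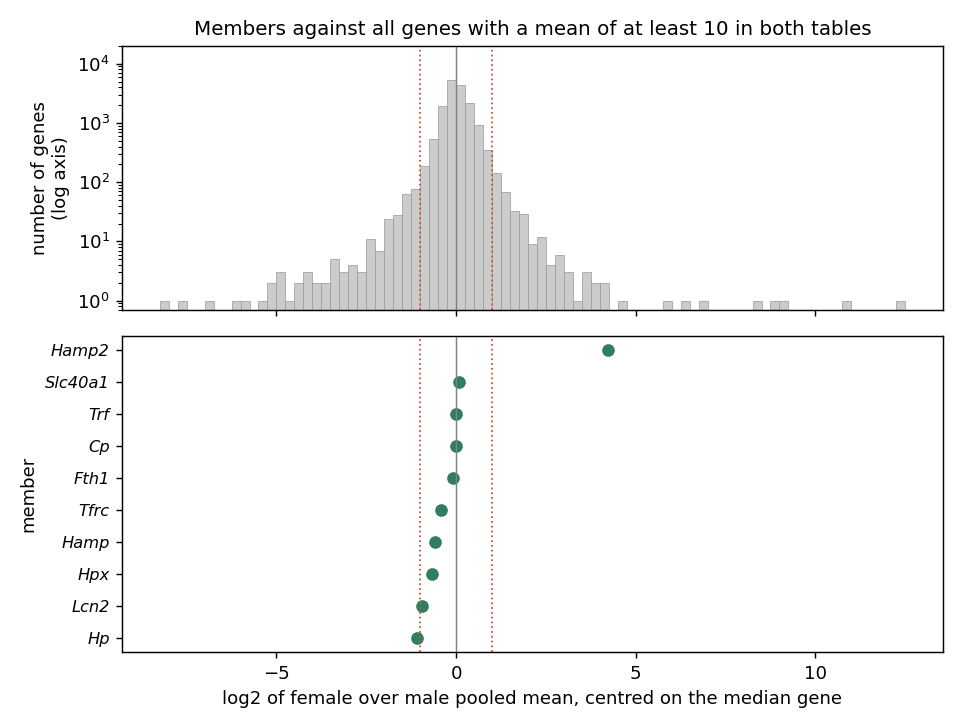
Upper panel, number of genes (log axis) by log2 of the female over the male pooled mean, centred on the median, for 16283 genes. Lower panel, the same ratio for the 10 genes, with dotted lines at 2-fold, where Hamp2 stands alone to the right at 4.22, Hp at -1.10 lies past the left line and the other 8 lie between the lines.

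The wider pathway was read from a list of 74 other genes of iron and heme handling. All 74 were listed in males and 70 in females, and 67 had a length-scaled level of at least 1 ppm in each sex. Of the 69 with a ratio, 0 were past 2-fold in the female direction and 3 in the male direction, against 1.99% and 1.5% of all genes, and the median log2 ratio was -0.06. The 3 were Scara5, a ferritin receptor, with a level of 9.68 ppm in males and 0.223 in females, Alas2, the heme synthesis enzyme of red cell precursors, with 129 and 26.9, and Abcg2, a porphyrin exporter, with 38.9 and 17.5. No gene of that list with a ratio came near that of Hamp2 in the female direction. In the male direction Scara5 had a ratio larger in size than that of Hamp2, a log2 ratio of -5.47. Its female mean normalized count was 10.9, just above the minimum of 10.

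Levels of at least 100 ppm were reached by 15 listed genes in males and 14 in females. Albumin (Alb), which also binds heme, stood highest with 43596 ppm in males and 57983 in females. The ferritin light chain gene Ftl1 had 3248 and 2369, and the heme-binding Pgrmc1 had 1513 and 1341. Alas1, the rate-limiting enzyme of hepatic heme synthesis, had 405.5 and 250.5, and Lrp1, the receptor that takes up hemopexin with its heme, had 396 and 409.8. Of the genes that regulate hepcidin, Tmprss6, a protease that restrains it, had 381 and 360.5, and Tfr2, a sensor of iron-loaded transferrin, had 262 and 250.5.

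Other listed genes also passed 100 ppm. Epas1, the hypoxia-inducible factor HIF-2α, had 199.8 ppm in males and 215 in females, the iron chaperone Pcbp1 had 167 and 158, the metalloreductase Steap4 had 149 and 132, and Aco1, which is iron regulatory protein 1, had 139 and 130. The iron and zinc importer Slc39a14 had 112 in each sex, and the globins Hbb-bs and Hba-a1 had 206 and 103 in males and 277 and 127 in females. At the low end, the mitochondrial ferritin Ftmt was listed at 0 in males and Mb, which encodes myoglobin, stood at 0.00833. Among the 70 listed in females, Scara5 and the duodenal reductase Cybrd1 were lowest, at 0.223 and 0.280, while Ftmt and Mb were not listed there.

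**Figure D5:**
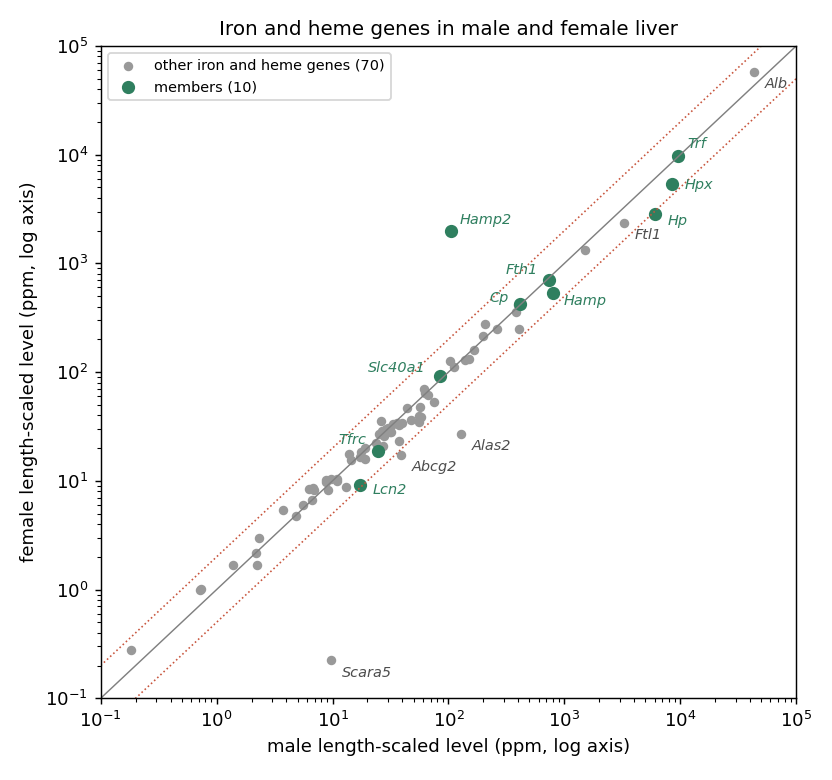
Length-scaled level in the female table against the male table (ppm, log axes on both) for the 10 genes and the other iron and heme genes listed in both tables, with the line of equal level and dotted lines at 2-fold. Hamp2 lies above the upper dotted line at 105 and 1991, Hp and Abcg2 lie just below the lower one, and Scara5 and Alas2 lie further below it. The levels plotted are not centred.

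Markers of the cell types of liver were read beside these values. The 8 hepatocyte genes all had levels of at least 100 ppm, and they summed to 77327 in males and 86639 in females, with Alb highest. The 8 Kupffer cell markers were all present and summed to 451 and 459, with Cd5l highest at 177 and 166. Sinusoidal endothelial markers were 8 of 8 present with sums of 223 and 252, led by Stab2 at 62.4 and 71.8. Erythroid markers were 7 of 8 at 1 ppm or more with sums of 514 and 528, led by Hbb-bs, but without Alas2 the sums were 385 and 501.5, and the other 6 genes with a ratio were all higher in females. Stellate markers were 6 of 6 with sums of 128 and 163, led by Colec11, and cholangiocyte markers were 3 of 4 with sums of 11.3 and 12.3, led by Sox9.

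Neutrophils also make Lcn2, and 2 of their 8 markers were listed in both tables. S100a9 had a level of 2.78 ppm in males and 1.64 in females and S100a8 had 2.11 and 1.22, while the 6 markers Ngp, Camp, Ltf, Mpo, Elane and Retnlg were below 1 ppm in males and not listed in females. The female table lists no mean under 6.61, so their absence there does not show a lower level. The 2 markers listed in both tables summed to 4.89 in males and 2.86 in females, and all 8 to 5.63 in males, beside 17.3 and 9.21 for Lcn2. Their part in the level of Lcn2 was not tested. Of the 74 other iron and heme genes, 8 are also in a marker list.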

How the data were processed

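Bulk RNA-seq of mouse liver (3 WT and 3 Midn-T per sex) was deposited as 1 table per sex. The authors aligned paired reads of 150 bases from rRNA-depleted, stranded libraries to GRCm39 with STAR 2.7 (per the labels), used HTSeq, set for reverse-stranded reads, to count those that mapped uniquely, and applied DESeq2 to each sex on its own. The signal used here is the deposited mean over 6 libraries of counts after the authors scaled them by size factors. The 5 other value columns of each table hold the fold change, its standard error, the statistic and the p-values of WT against Midn-T and were not used, nor were the ATAC-seq peak lists, where the titles of 5 of 8 samples contradict the library names. Depth and precision per sample are therefore not known.

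Lengths, transcripts and positions came from GENCODE M39 on GRCm39. The authors counted reads on a different annotation release, from Ensembl, so the exons counted and the exonic lengths used here may differ. Of the 56884 genes of the male table, 56323 had a length in GENCODE M39, as had 18045 of the 18149 in the female table. Promoter sequence is not reported here. Means were divided by the union of annotated exons and scaled to a sum of 1000000 (ppm). Ratios between sexes used genes with a mean of at least 10 in both tables and were centred on their median, with no test. Words of 75 bases were searched on both strands of the genome, and stem-loops in canonical transcripts. Sequence searches and centring were tested on simulated data. Python 3.11.15, numpy 2.4.6, pandas 2.3.3, numba 0.67.0, biopython 1.88 and matplotlib 3.10.9 were used. Text names the 10 genes, other iron and heme genes at 100 ppm or more, past 2-fold or among the 2 lowest, the highest gene of each marker list, and genes named as chosen later. The 10 genes and the lists were chosen with earlier results of these data known. Alternatives were other lengths, denominators, minimum means, centring, word lengths and stems.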

Additional observations from a re-analysis of the deposited data

How the results depend on the processing

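Of 136 alternative values, 109 stayed within 1.5 times the reported one and 27 moved further. Of the 109, several could hardly have moved, namely the 20 log2 ratios between the sexes, where leaving out the centring or scaling to each table's sum shifts every gene alike by at most 0.05, and the 20 percentiles among coding genes, most of them near the top of their range. Leaving out mitochondrial and rRNA loci multiplies every level of a table by the same factor. The 20 levels under that setting could thus only move together, and the order of the genes could not change. The ratio of Cp, -0.0016, changed sign under both scalings, to 0.05 and 0.03. With the longest transcript 4 of 10 genes kept their place in the male order and 4 of 20 levels moved, Cp to 641 ppm in males and 655 in females and Slc40a1 to 157 and 171. With the canonical transcript, an alternative added after the data were seen, 3 of 10 kept their place and 10 of 20 levels moved, Fth1 to 1731 and 1668 ppm, while Trf, Hpx and Hp stayed the 3 highest and Lcn2 and Tfrc exchanged the 2 lowest places in males, as they did with the longest transcript. The number of genes over 2 times higher in females was 678 with no minimum mean and 106 with a minimum of 100, against 324, and 109 were higher in males with a minimum of 100, against 245. The percent of words shared outside the gene rose with words of 31 bases, in Hamp from 2.13 to 22.2, and such words were shared by Hamp, Hamp2, Fth1, Hp and Cp, and those of 150 bases by none of the 10. With 1 unpaired stem position allowed, 10.8% of coding transcripts had a match and the 10 genes had the same 6. No paired analysis was possible because the deposited means pool the libraries, and no library could be left out for the same reason. The pooled means limit every statement to description, since the spread between livers was not used here.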
